A study of Mus musculus with 16 samples.

Results

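The regions described here are the H3K9me3 peaks found in both non-HFSC populations of mouse skin and in neither HFSC population, called the non-HFSC-only peaks below. They were chosen by the peak lists themselves. A peak of the non-EA-HFSC H3K9me3 list was taken when it met a non-LC-HFSC peak, by 1 bp or more, and did not touch the EA-HFSC or LC-HFSC peaks. This gave 2306 of the 17873 peaks of the non-EA-HFSC list, or 12.9%, out of 219698 peaks in the 12 lists of the study. The study mapped H3K4me3, H3K9me3 and H3K27me3 by ChIP-seq in 4 populations sorted from the skin of wild-type CD1 x FVB mice. The labels give these as male, while the paper's methods say that most experiments used mice of either sex. HFSCs were the CD34+/α6-integrin+ cells of the bulge, and non-HFSCs the CD34-/α6-integrin+ cells of the same skin, which hold several kinds of epidermal and follicle cells and are therefore a mixture. EA-HFSCs and non-EA-HFSCs (nEA-HFSCs in the labels) came from early anagen at PD22-25, when the follicle starts to grow. LC-HFSCs and non-LC-HFSCs (nLC-HFSCs) came from late catagen at PD38-44, when it has regressed. No agent or mutation was used, cells of 15-20 mice were pooled for ChIP, and chromatin was cut with micrococcal nuclease. The chromatin of a sorted population was divided among its immunoprecipitations, so that its marks share their source.

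H3K9me3 is the histone mark of constitutive heterochromatin. It is written by the SUV39H and SETDB1 enzymes and bound by HP1 proteins, and it silences pericentromeric repeats and endogenous retroelements. KRAB zinc finger proteins bring SETDB1 to such elements through TRIM28, and their own genes carry the mark over the exon that encodes the zinc fingers. H3K27me3, written by the Polycomb complex PRC2, is a second repressive mark that sits mostly at developmental genes, and H3K4me3 marks active promoters.

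The authors deposited 1 list for each population and mark, called on pooled reads, so populations were compared without replicates and no test was made. Each peak carries a score, which is minus 10 times the log10 of the MACS p-value against the IgG library of its population. The lists hold no read numbers. The 4 H3K9me3 lists were very unequal, with 17873 peaks in non-EA-HFSCs, 42277 in EA-HFSCs, 18236 in non-LC-HFSCs and 1414 in LC-HFSCs. The paper states that reads did not saturate H3K9me3 peak detection, and that LC-HFSCs had more reads than EA-HFSCs. Absence from a list therefore means that no peak was called, not that the mark was absent. Intervals are 95% Wilson intervals for shares and order-statistic intervals for medians, and they cover counting error only.

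The sorted populations were checked with H3K4me3 within 3 kb of the starts of 37 marker genes. All 6 markers of interfollicular epidermis and infundibulum had a peak in both non-HFSC lists and 3 of 6 in each HFSC list, with Krt1 and Krt79 unmarked in HFSCs. Of the 7 bulge markers, 7 had a peak in each HFSC list, 6 in non-EA-HFSCs and 5 in non-LC-HFSCs, where Cd34 was unmarked in both. None of the 5 leukocyte markers was marked in any population. Of the 6 melanocyte markers, 3 had a peak in non-EA-HFSCs, 1 in non-LC-HFSCs, 3 in EA-HFSCs and 2 in LC-HFSCs. Of the 5 markers of the epithelial basal layer 3 had a peak in every population, while Itga6, the gene of the integrin used in the sort, and Trp63 had none within 3 kb of the annotated start in any. Of the 4 endothelial markers 1, and of the 4 fibroblast markers 2, had a peak in every population.

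The highest-scoring non-HFSC-only peaks were long regions, most of them between genes, and sequence from their middles is shown because these are the regions where the peak caller found the strongest H3K9me3 under this rule. Each line holds 200 bases of the plus strand of mm9, in lower case with CpG dinucleotides, the sites of DNA methylation, in capitals.
chr13:99772524-99772723: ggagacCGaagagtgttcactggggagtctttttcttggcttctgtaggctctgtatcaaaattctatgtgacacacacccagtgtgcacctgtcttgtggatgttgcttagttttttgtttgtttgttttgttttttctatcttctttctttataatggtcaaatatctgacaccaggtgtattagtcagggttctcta
chr12:88493520-88493719: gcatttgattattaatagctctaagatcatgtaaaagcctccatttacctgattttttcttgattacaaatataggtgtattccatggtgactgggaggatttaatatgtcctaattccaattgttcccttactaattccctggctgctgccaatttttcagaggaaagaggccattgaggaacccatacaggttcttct
chr7:12607991-12608190: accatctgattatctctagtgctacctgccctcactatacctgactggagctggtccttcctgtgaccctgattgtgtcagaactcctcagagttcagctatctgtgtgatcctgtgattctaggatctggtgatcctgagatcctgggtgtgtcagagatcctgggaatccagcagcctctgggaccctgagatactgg
chr6:8196970-8197169: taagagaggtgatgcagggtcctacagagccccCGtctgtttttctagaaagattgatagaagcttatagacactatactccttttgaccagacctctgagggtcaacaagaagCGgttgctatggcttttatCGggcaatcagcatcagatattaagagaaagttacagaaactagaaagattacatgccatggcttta
The stretches held 1, 0, 0 and 3 CpG dinucleotides. The whole peaks around them held 59, 113, 13 and 66.

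The first of these, chr13:99770087-99775161, was 5075 bp wide and had the highest score of the non-HFSC-only peaks, 703.17, which was rank 123 of the non-EA-HFSC list. It lay between genes, 18104 bp from the nearest protein-coding start, that of 1700024P04Rik, and 30415 bp from the nearest HFSC H3K9me3 peak. Its non-LC-HFSC partner had a score of 112.21. The second, chr12:88489892-88497347, was the widest of all at 7456 bp, scored 645.72 and lay in an intron of Gstz1, which encodes an enzyme of tyrosine breakdown. It was only 362 bp from an HFSC H3K9me3 peak, and it carried H3K4me3 peaks of EA-HFSCs and LC-HFSCs and none of the non-HFSCs. The third, chr7:12605520-12610661, scored 642.30 and lay 18557 bp from the start of the pheromone receptor gene Vmn1r77, and the fourth, chr6:8194636-8199503, scored 629.33 and lay 12103 bp from that of Rpa3, a subunit of the single-stranded DNA binding protein RPA.

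The other 6 of the 10 highest scores ran from 457.90 to 548.45. They lay nearest to Gm9805 (chr17:22866073-22869923), the protease inhibitor gene Serpinb6c (chr13:33966201-33969904), the replication fork repair gene Mms22l (chr4:24414822-24419865), Gm13145 (chr4:146722482-146725574), Atp5l-ps1 (chr7:69852200-69856321) and Ccdc3 (chr2:5026987-5030158). All 6 lay between genes, and the peak near Mms22l was the only 1 of the 10 on an H3K27me3 peak, that of EA-HFSCs. The non-LC-HFSC partners of the 10 peaks scored between 44.83 and 151.20, far less than the non-EA-HFSC peaks. The 10 were picked by their non-EA-HFSC score, which favours this difference.

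The partner peaks were narrow and of low score, but so was their whole list. The non-LC-HFSC H3K9me3 list had a median score of 49.6 and a median width of 578 bp. For the non-EA-HFSC list these were 61.9 and 1072 bp. The overlapping non-LC-HFSC peak had a median score of 52.9 (52.2 to 53.9, n = 2306) and a median width of 618 bp, while the non-HFSC-only peaks had a median score of 77.8 (74.9 to 80.4) and a median width of 1281 bp (1249 to 1305) in the non-EA-HFSC list. The non-EA-HFSC peak was the wider of the pair in 94.9% of cases and had the higher score in 74.6%, although scores of different lists are not on a common scale. The shared stretch had a median of 581 bp, or 45.8% of the non-EA-HFSC peak. Both scores were at least 100 for 92 regions, or 3.99% (3.26 to 4.87%). Most regions, 2120 of 2306, met 1 non-LC-HFSC peak and 186 met 2 or more.

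The highest partner score, 247.34, belonged to a non-LC-HFSC peak near Mfge8 that met a pair of non-HFSC-only peaks. Mfge8 encodes a secreted protein that bridges dying cells and phagocytes. The pair was chr7:86295567-86296515, with a non-EA-HFSC score of 54.25, and chr7:86296583-86297551, with 105.94. Both lay on H3K27me3 peaks of non-EA-HFSCs, non-LC-HFSCs and LC-HFSCs. A second pair, chr10:56178550-56179954 and chr10:56180928-56182155, shared a partner of score 192.12. They lay 82146 and 84436 bp from the start of Gja1, the connexin 43 gene, and also lay on H3K27me3 peaks of both non-HFSC populations, the first of them on one of EA-HFSCs as well. The remaining region of the 5 with the highest partner scores was chr18:3117779-3120007 near Vmn1r238, with a partner score of 206.07, and lay 10 bp from an HFSC peak. Thus the regions that scored highest in late catagen were not those that scored highest in early anagen.

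Within the non-EA-HFSC list the non-HFSC-only peaks took the middle and upper ranks. With the list cut by score into 10 bins of equal size, they made up 7.66% of the lowest bin, 19.8% of bin 9 and 19.5% of bin 10, the highest. Peaks that also met an HFSC list made up 15.6% of bin 9 and 40.5% of bin 10. The latter, 1674 peaks found in both non-HFSC lists and at least 1 HFSC list, had a median score of 141 and a median width of 1916 bp. The 11755 peaks of non-EA-HFSCs alone had a median score of 56.3 and a median width of 985 bp. These values describe lists that the rule itself used.

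**Figure D1:**
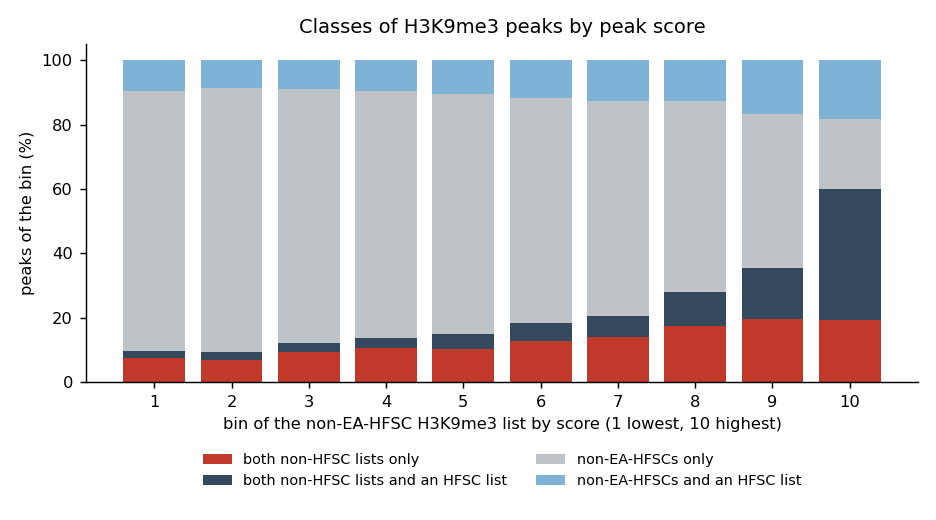
Share (%) of each of 10 equal bins of the non-EA-HFSC H3K9me3 list, ordered by peak score on the horizontal axis, that fell into each of 4 classes, with bars stacked to the whole bin. The non-HFSC-only peaks (red) grow from 7.66% of the lowest bin to 19.5% of the highest, where peaks shared with an HFSC list (dark blue) reach 40.5%.

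Of all peaks of the non-EA-HFSC list, 22.3% met a non-LC-HFSC peak and 78.7% met no HFSC peak. Among the 3980 peaks that met a non-LC-HFSC peak, 1390 met an EA-HFSC peak and 696 an LC-HFSC peak, 412 of them both. Most exclusions therefore came through the long EA-HFSC list. The share without an HFSC peak was 57.9% (56.4 to 59.5%) among peaks that met a non-LC-HFSC peak and 84.6% (84.0 to 85.2%) among those that did not, so that peaks seen in both non-HFSC lists had an HFSC peak more often than the rest of the list.

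Some non-HFSC-only peaks lay close to an HFSC H3K9me3 peak. Distances were measured for these regions alone, on lists that the rule used, so their closeness cannot be set against a background. The median distance to the nearest HFSC H3K9me3 peak was 12970 bp (11854 to 14224), 9.97% of the regions had one within 1 kb, 28.9% within 5 kb, and 16.4% had none within 50 kb. The closest were chr10:79026932-79028062 near Mier2 and chr5:137928226-137929169 in an intron of Epo, the erythropoietin gene, each 4 bp away, and chr2:73397551-73398388 near the muscle acetylcholine receptor gene Chrna1, 5 bp away. All 3 carried H3K27me3 of at least 1 non-HFSC population, and those near Mier2 and in Epo also that of EA-HFSCs. Just outside the rule were peaks kept out by an overlap of 5 bp near Glb1 (chr9:114319228-114320444), 6 bp near Gm9898 (chr1:30146816-30148216) and 14 bp near Zfp960 (chr17:17181633-17185725). The last had a score of 552.40, as high as the leading regions inside the rule. Overlaps of under 10% of the peak kept out 46 of the 1674, and the median overlap was 942 bp.

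Placed by their middles, most non-HFSC-only peaks lay outside genes. Of the 2289 non-HFSC-only peaks on assembled chromosomes, 1521 lay between genes, or 66.4% (64.5 to 68.4%), beside 69.5% of the whole non-EA-HFSC list and 60.5% of the gap-free genome. In introns lay 710 (29.2 to 32.9%), beside 27.8% of the list and 35.0% of the genome. Promoters, counted from 1000 bp before a transcript start to 100 bp after it, held 15 peaks, or 0.655% (0.398 to 1.08%), beside 0.706% of the list and 1.83% of the genome. Other exons held 30, the 3' untranslated regions 12 and the 5' untranslated regions 1. Thus the intergenic share was below that of the list and above that of the genome. The order against the genome did not hold under stricter settings, with 55.6% between genes at scores of at least 100 in all lists, 54.3% at such scores in the non-HFSC H3K9me3 lists and 59.6% with H3K9me3 lists of equal length. Promoters were met less often than their share of the genome. Within 3 kb of a protein-coding start lay 95 regions, or 4.12% (3.38 to 5.01%), beside 3.78% of the list.

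The highest-scoring of the 15 promoter regions were chr4:145746505-145751336 at Gm13251, with a score of 371.82, and chr13:38753086-38755264 at Gm17729, with 320.78. Neither was on an H3K4me3 or H3K27me3 peak of any population. The promoter region chr1:43221308-43222099 near Fhl2, a LIM domain cofactor gene, scored 68.45 and was on H3K4me3 peaks of all 4 populations and on H3K27me3 peaks of both non-HFSC populations.

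H3K27me3 accompanied a part of the non-HFSC-only peaks. It was called in non-HFSCs and not in HFSCs at 150 of them, or 6.50%. It was called in HFSCs and not in non-HFSCs at 96, or 4.16%, and in both at 68. In the whole list of 17873 peaks it was called in non-HFSCs at 1087, in HFSCs at 1264, and in both at 606 of these. Peaks of H3K27me3 in HFSCs overlapped 164 regions, or 7.11% (6.13 to 8.23%), beside 7.07% of the whole list, which is near the background. Peaks of H3K27me3 in non-HFSCs overlapped 218 regions, or 9.45% (8.33 to 10.7%), beside 6.08% of the whole list and 10.5% (9.29 to 11.9%) of the peaks that met an HFSC list and no non-LC-HFSC peak. The share was 15.8% when only overlaps of at least 50% of the peak were counted. That setting applied to the HFSC lists too, so it also took in peaks that met an HFSC peak by less. The share was 14.7% when the EA-HFSC list was not used. By population, 140 regions were on a non-EA-HFSC H3K27me3 peak, or 6.07% (5.17 to 7.12%), beside 4.37% of the whole H3K9me3 list. On a non-LC-HFSC H3K27me3 peak were 167, or 7.24% (6.25 to 8.37%), beside 4.68%. On an EA-HFSC H3K27me3 peak were 161, or 6.98% (6.01 to 8.10%), beside 7.03%, and on an LC-HFSC H3K27me3 peak 5, or 0.217% (0.0926 to 0.507%), beside 0.688%. The shares were thus above those of the list for both non-HFSC populations, near it for EA-HFSCs and below it for LC-HFSCs. They were below those of the peaks found in both non-HFSC lists and an HFSC list in every population. In that class H3K27me3 of non-HFSCs overlapped 18.9% (17.1 to 20.8%), and in the peaks of non-EA-HFSCs alone 2.79% (2.51 to 3.10%).

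Of the 218 regions with H3K27me3 of non-HFSCs, those with HFSC H3K27me3 as well made up 31.2% (25.4 to 37.6%). Among the 316 peaks of the same kind in the class shared with an HFSC H3K9me3 list, HFSC H3K27me3 was present at 81.0% (76.3 to 85.0%). It was present at 55.7% (52.8 to 58.7%) in the whole list, at 35.1% (30.1 to 40.4%) in the peaks of non-EA-HFSCs alone and at 74.2% (68.1 to 79.5%) in those that met an HFSC list and no non-LC-HFSC peak. The non-HFSC-only peaks therefore lay below the whole list and both classes with an HFSC H3K9me3 peak, by intervals that do not overlap, and did not differ from the peaks of non-EA-HFSCs alone beyond them. The H3K9me3 and H3K27me3 peaks of a population were called against the same IgG library, and the classes differ in width, as given above. The part of either in this difference was not tested.

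The highest-scoring regions on H3K27me3 of non-HFSCs were chr7:86360508-86363270 near Abhd2, with an H3K9me3 score of 335.53, chr11:117422485-117425478 near Gm11733, with 330.24, and chr10:110479268-110482558 near the palmitoyltransferase gene Zdhhc17, with 323.90. The first lay on H3K27me3 of both non-HFSC populations and on the same stretch of chromosome 7 as the pair near Mfge8 described above. None of the 3 was on an H3K27me3 peak of an HFSC population. Among the marker genes, 3 of 37 had a non-HFSC-only peak in the gene or within 3 kb of its start. They were 1 of the 7 bulge markers and 2 of the 6 melanocyte markers, with none in the other sets. The share over all genes was not counted, so nothing about cell types can be read from these 3. The region in Tcf7l1 (chr6:72708688-72710659), a transcriptional repressor of bulge cells, had a score of 120.98 and H3K27me3 of both non-HFSC populations and of no HFSC population. It lay in an intron, 29574 bp from the gene start, and that start had an H3K4me3 peak within 3 kb in all 4 populations. The regions at the melanocyte pigment genes Dct (chr14:118429971-118431555) and Mlana (chr19:29768488-29770205) scored 82.79 and 59.33 and carried neither of the other marks.

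**Figure D2:**
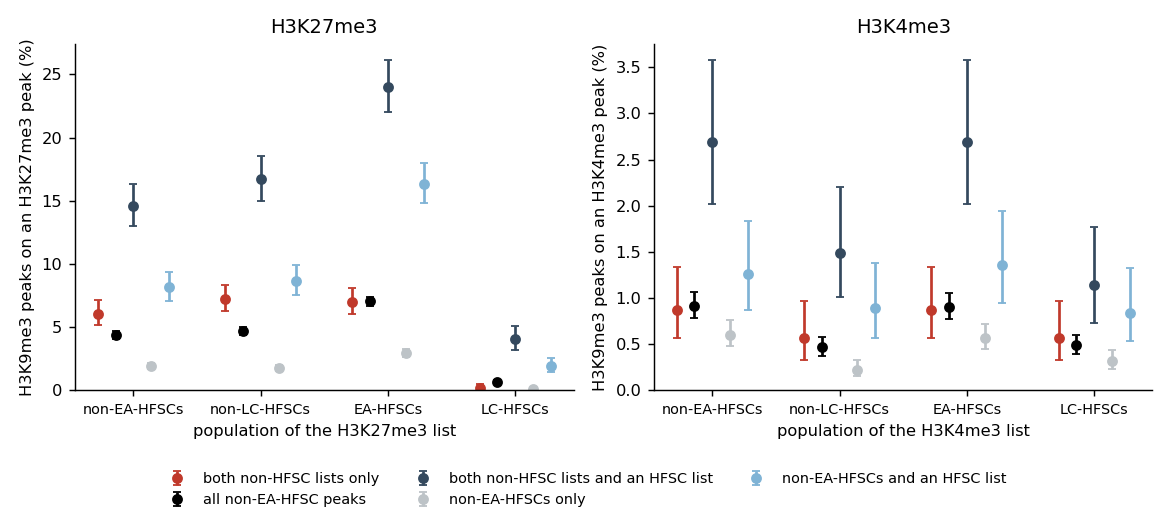
Share (%) of H3K9me3 peaks that overlap an H3K27me3 peak (left) or an H3K4me3 peak (right) of each of the 4 populations on the horizontal axis, by class of H3K9me3 peak, with points for the share and bars for the 95% Wilson interval. For H3K27me3 of both non-HFSC populations the non-HFSC-only peaks (red) lie above the whole list (black) and below the peaks shared with an HFSC list (dark blue). For H3K4me3 they lie close to the whole list.

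H3K4me3 was rare on the non-HFSC-only peaks. It overlapped 20 of them in non-EA-HFSCs, or 0.867% (0.562 to 1.34%), beside 0.912% of the whole list, and 13 in non-LC-HFSCs, or 0.564% (0.330 to 0.962%), beside 0.464%. In EA-HFSCs it overlapped 20, beside 0.901% of the list. The LC-HFSC peaks overlapped 13, beside 0.487%. These shares did not differ from the list beyond their intervals in any population. At 12 regions H3K4me3 was present in all 4 populations, and 1974 regions, or 85.6%, had neither H3K4me3 nor H3K27me3 in any population, beside 89.4% of the list.

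The highest-scoring region on H3K4me3 of non-HFSCs was chr1:34485031-34489528 near Ccdc115, with a score of 432.65. The next was chr17:12963039-12966055, with 242.57, which lay 2017 bp from the start of Igf2r, an imprinted receptor gene expressed from the maternal chromosome, and also carried H3K27me3 of both non-HFSC populations. The third was chr15:72638168-72641714, with 227.97, in an intron of Trappc9, the gene that hosts the imprinted non-coding RNA Peg13. All 3 were on H3K4me3 of all 4 populations. At imprinted loci the parental chromosomes can carry different marks, which pooled peak lists cannot separate.

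The gene family with the most non-HFSC-only peaks was that of the C2H2 zinc finger genes, with 56 peaks in 50 of 398 genes. That is 2.43% (1.87 to 3.14%) of the regions, beside 2.10% of the non-EA-HFSC list, and is near the background. In the class shared with an HFSC list it was 8.18% (6.96 to 9.59%). These genes were taken by symbol, and the last exon of any protein-coding transcript at them was counted. The exon that encodes the zinc fingers was not itself located. Of the 56, 21 met such a last exon, or 37.5% (26.0 to 50.6%), against 103 of 137 in the shared class, or 75.2% (67.3 to 81.7%). In the whole list the share was 46.4% (41.4 to 51.5%), in the peaks that met an HFSC list and no non-LC-HFSC peak 39.5% (26.4 to 54.4%), and in those of non-EA-HFSCs alone 23.7% (17.4 to 31.5%). The non-HFSC-only peaks thus lay below the shared class, and did not differ beyond the intervals from the list or the other classes.

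The zinc finger gene peaks of highest score were chr10:81695087-81700531 in an intron of Zfp938, with a score of 430.02 and 98 bp from an HFSC peak, and chr9:22045481-22049839 across the edge of Zfp809, with 425.71. ZFP809 is a repressor that binds retroviral DNA in embryonic cells. Zfp800 held 3 non-HFSC-only peaks, the most of any zinc finger gene, and Zfp141, Zfp438, Zfp809 and Zfp932 held 2 each. The peak over Zfp445, a regulator of imprinted loci, was among the 5 widest at 5911 bp (chr9:122758315-122764225) and scored 190.32. The others of the 5 were those at Gstz1 and Zfp938, chr7:38976001-38982924 in an intron of 1600014C10Rik, whose score was only 40.70, and chr11:3540520-3546099 near Morc2a, a gene of the machinery that silences retroelements, which scored 360.15.

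The clustered protocadherins, adhesion genes of neurons, held 5 non-HFSC-only peaks in 4 of 24 genes, or 0.217% (0.0926 to 0.507%), beside 0.190% of the list and 0.956% of the shared class. The higher of the named pair, chr18:37952208-37953988 in Pcdhgc5, scored 166.58, and the other, chr18:37652889-37654040 in Pcdhb18, scored 76.05. The solute carriers held 16 peaks in 14 of 355 genes, or 0.694% (0.428 to 1.12%), beside 0.526% of the list, led by Slc12a8 (chr16:33648424-33652087, 192.46) and the nucleoside transporter gene Slc29a3 (chr10:60175238-60177410, 184.83). The collagens held 3, in Col13a1 and Col14a1 among others, or 0.130%, beside 0.134% of the list. The cadherins held 1, or 0.0434%, beside 0.151%, in Cdh3, the P-cadherin gene of the hair follicle (chr8:109077210-109078276, 63.71). A pair of peaks was found in each of 3 families, the cytochrome P450 genes (Cyp4f15 and Cyp2j13), the UDP glucuronosyltransferases (the Ugt1a locus and Ugt3a1) and the neuronal adhesion and synaptic genes (the higher-scoring in the glutamate receptor gene Grm4). A pair is 0.0867% of the regions, beside 0.123%, 0.0504% and 0.269% of the list for these families in the same order. The MHC genes held 1, in H2-Aa (chr17:34413238-34414638, 79.34), or 0.0434%, beside 0.0112%. The intervals of the regions held the share of the list in each of these families. Keratins, keratin-associated proteins, olfactory and vomeronasal receptors, serpins, killer cell lectin-like receptors, kallikreins, Hox genes, other homeobox regulators, histones and the Wnt ligands and receptors held 0 of 2306, which allows a share of up to 0.130% each, taken as 3 counts. Their shares of the list were also low, from 0 to 0.0727%, so that nothing can be read from these zeros.

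**Figure D3:**
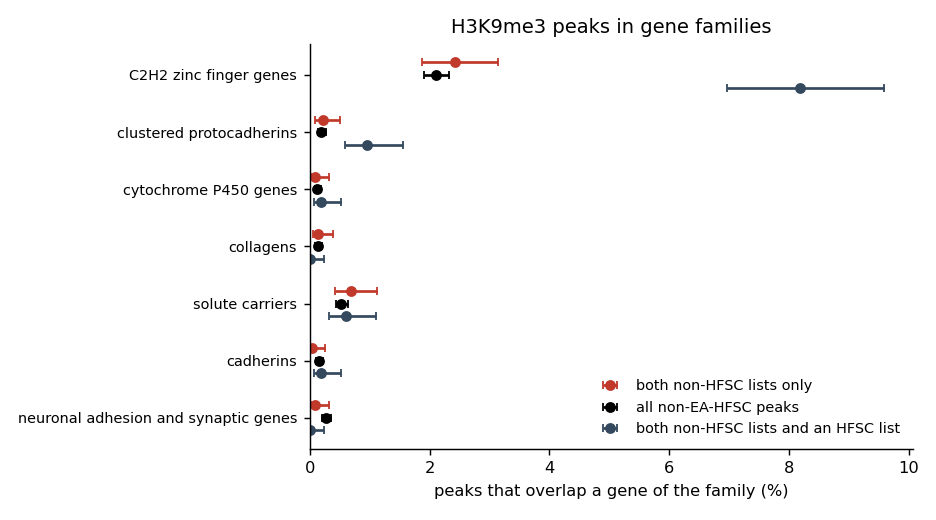
Share (%) of peaks that overlap a gene of each family with 20 or more peaks of the non-EA-HFSC list, for the non-HFSC-only peaks (red), the whole list (black) and the peaks shared with an HFSC list (dark blue), with 95% Wilson intervals as bars. For the C2H2 zinc finger genes the red point at 2.43% lies close to the black one at 2.10% and far below the dark blue one at 8.18%.

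Along the genome the non-HFSC-only peaks were spread widely. They fell into 1221 of 2665 windows of 1 Mb, 662 of which held 1 region, and the median gap between neighbours was 472 kb. The densest window was chr17:22000001-23000000, with 14 of the 103 non-EA-HFSC peaks there and with 7 zinc finger genes, among them Zfp942 to Zfp947. Next was chr18:37000001-38000000 over the protocadherin clusters, with 10 of 75. Windows with 8 regions were chr13:62000001-63000000, around Zfp808 and Zfp934, and chr4:146000001-147000000, around Zfp600. The windows on chromosomes 13 and 4 held 115 and 68 peaks of the list, so that the whole list was dense in these windows too.

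The share of non-EA-HFSC peaks that met the rule varied little among autosomes, from 10.9% on chromosome 3 to 15.3% (12.9 to 18.1%) on chromosome 18, and most intervals held the 12.9% of the list. Chromosome X had 5 such peaks of 88, or 5.68% (2.45 to 12.6%), and only 0.0300 per Mb, against 1.36 per Mb on chromosome 17. That was the densest chromosome, with 936 peaks of the list, of which 13.9% met the rule. The whole list was thus sparse on chromosome X too. Males have a single X chromosome, and the part of the sex of the mice in the low number was not tested.

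**Figure D4:**
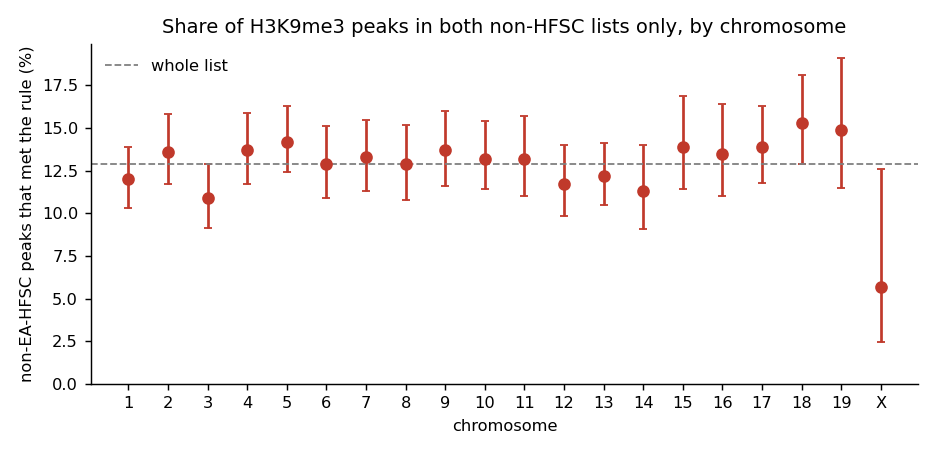
Share (%) of the non-EA-HFSC H3K9me3 peaks of each chromosome that met the rule, with 95% Wilson intervals as bars and the 12.9% of the whole list as a dashed line. The autosomes lie between 10.9% and 15.3%, and chromosome X lies lowest at 5.68%.

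The base composition of the non-HFSC-only peaks was ordinary. Their GC content was 43.1%, against 42.5% in the list and 41.8% in the genome, and the ratio of observed to expected CpG was 0.186, against 0.190 and 0.191. Repeated sequence was measured as 31-base words that occur at least 10 times in mm9, since the genome used carries no repeat names. Such words made up 10.9% of the regions, 11.8% of the list and 11.8% of the genome, and words with at least 100 copies 4.28%, 4.74% and 7.76%. The authors removed reads of low alignment quality, and how far this lowered the shares was not tested. At least 50% of the words were repeated in 46 regions, or 2.01% (1.51 to 2.67%), against 3.54% of the list.

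Of the 2289 regions, 207 shared long stretches of sequence with other regions, at least 100 words of 31 bases, and formed 47 groups. The other classes and the whole list were not grouped in this way, so the grouping cannot be read as a trait of these regions. The 8 largest groups, A to H, held 103 regions, with 7 to 21 each. Stretches of groups A, C and D are shown because A is the largest, C holds the higher-scoring of 2 regions that are in these groups and among the 10 highest scores, the other being that near Atp5l-ps1 in group B, and D has the highest share of its copies on H3K9me3 peaks. The lines read in a common direction, with the strand given. Capitals mark the bases covered by words that about 1 in 3 members of the group, or more, share.
A chr11:3182203-3182402 plus: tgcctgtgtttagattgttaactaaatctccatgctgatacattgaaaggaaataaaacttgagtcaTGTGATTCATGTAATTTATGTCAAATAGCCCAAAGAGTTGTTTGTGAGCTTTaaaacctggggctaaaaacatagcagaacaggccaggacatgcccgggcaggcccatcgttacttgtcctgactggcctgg
A chr2:18242605-18242804 plus: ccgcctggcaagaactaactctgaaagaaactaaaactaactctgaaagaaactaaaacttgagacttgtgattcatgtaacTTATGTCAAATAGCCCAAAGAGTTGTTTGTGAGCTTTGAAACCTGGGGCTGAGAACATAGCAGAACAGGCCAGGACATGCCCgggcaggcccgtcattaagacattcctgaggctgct
A chr10:53210159-53210358 minus: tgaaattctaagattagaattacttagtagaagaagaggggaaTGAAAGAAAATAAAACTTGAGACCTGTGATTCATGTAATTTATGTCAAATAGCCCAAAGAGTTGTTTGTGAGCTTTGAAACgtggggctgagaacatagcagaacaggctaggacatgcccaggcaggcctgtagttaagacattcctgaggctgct
C chr13:33967920-33968119 plus: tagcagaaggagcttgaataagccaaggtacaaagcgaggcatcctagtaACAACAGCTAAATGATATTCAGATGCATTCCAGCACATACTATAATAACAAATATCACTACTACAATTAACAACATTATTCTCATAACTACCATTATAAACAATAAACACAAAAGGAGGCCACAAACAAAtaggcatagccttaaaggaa
C chr6:117671760-117671959 plus: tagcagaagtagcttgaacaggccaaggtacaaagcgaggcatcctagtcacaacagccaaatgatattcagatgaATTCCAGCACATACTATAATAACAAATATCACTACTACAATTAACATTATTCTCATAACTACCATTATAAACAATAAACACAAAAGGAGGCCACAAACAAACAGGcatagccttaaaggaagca
C chr2:60403210-60403409 plus: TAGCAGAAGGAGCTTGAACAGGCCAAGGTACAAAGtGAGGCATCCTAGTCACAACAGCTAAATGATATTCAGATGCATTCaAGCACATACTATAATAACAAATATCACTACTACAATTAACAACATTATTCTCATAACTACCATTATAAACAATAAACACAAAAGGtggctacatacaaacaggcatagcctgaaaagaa
D chr7:26652758-26652957 plus: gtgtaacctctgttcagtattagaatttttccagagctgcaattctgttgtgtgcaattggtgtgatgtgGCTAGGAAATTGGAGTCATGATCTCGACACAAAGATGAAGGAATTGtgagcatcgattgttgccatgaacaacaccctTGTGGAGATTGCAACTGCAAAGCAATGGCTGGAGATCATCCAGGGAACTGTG
D chr13:22497143-22497342 plus: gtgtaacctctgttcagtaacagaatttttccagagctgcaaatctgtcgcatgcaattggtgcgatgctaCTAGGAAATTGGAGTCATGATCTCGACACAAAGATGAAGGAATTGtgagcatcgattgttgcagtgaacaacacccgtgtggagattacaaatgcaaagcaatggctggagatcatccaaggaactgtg
D chr9:119113779-119113978 plus: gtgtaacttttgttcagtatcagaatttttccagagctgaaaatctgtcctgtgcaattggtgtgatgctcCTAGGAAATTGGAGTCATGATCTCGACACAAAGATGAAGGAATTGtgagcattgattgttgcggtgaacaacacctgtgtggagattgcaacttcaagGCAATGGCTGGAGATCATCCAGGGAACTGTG
The shared words make the kinship of the members visible, although the regions lie on different chromosomes. The 21 members of group A lay on 13 chromosomes, the 16 of group C on 13 and the 14 of group D on 11.

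The same sequences occur elsewhere in the genome, and their copies on each of the 4 lists were counted. Group A had 779 copies in mm9, of which 259, or 33.2%, were on a non-EA-HFSC H3K9me3 peak, 65, or 8.34%, on a non-LC-HFSC peak, 42, or 5.39%, on an EA-HFSC peak and 7, or 0.899%, on an LC-HFSC peak. Group D had 111 copies, with 61.3%, 23.4%, 14.4% and 7.21% on the lists in the same order, and group C had 492, with 15.9%, 7.32%, 4.07% and 2.24%. The lists themselves covered 0.920%, 0.455%, 1.48% and 0.103% of the genome. The groups were built from regions with peaks in both non-HFSC lists and none in the HFSC lists. All of these shares are therefore in part set by the choice.

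The copies outside the non-HFSC-only peaks were counted too. There the non-EA-HFSC list met 28.5% of 727 copies of group A, 12.3% of 472 of group C and 55.2% of 96 of group D, and the EA-HFSC list 5.78%, 4.24% and 16.7%. In each of the 8 groups the share was higher for non-EA-HFSCs than for EA-HFSCs, although the EA-HFSC list covers more of the genome. The groups were chosen for a non-EA-HFSC peak and against an EA-HFSC peak, and these copies share their sequence. The choice thus favours this order, and no conclusion is drawn from it. The rule removes copies on both non-HFSC lists together and hardly any on the HFSC lists, so no such share is given for non-LC-HFSCs. Depth and background of the libraries differ between the lists, and their part in this was not tested.

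**Figure D5:**
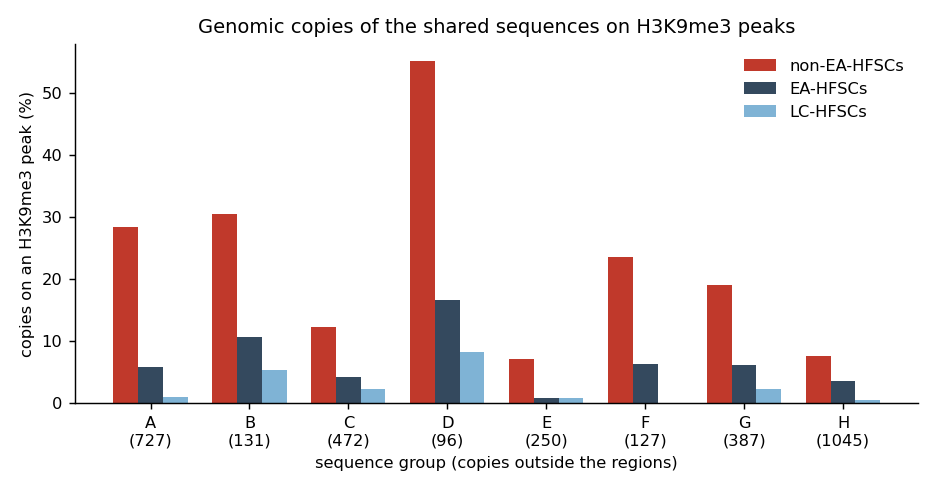
Share (%) of genomic copies of the shared sequence of groups A to H that lie on an H3K9me3 peak of non-EA-HFSCs, EA-HFSCs and LC-HFSCs, for copies outside the non-HFSC-only peaks, whose number is given in parentheses. The non-EA-HFSC bar (red) is the tallest in every group, with 55.2% in group D, where the EA-HFSC bar (dark blue) stands at 16.7%. The groups were chosen for a non-EA-HFSC peak and against an HFSC peak, which favours this order.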

How the data were processed

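The data are peak lists of H3K4me3, H3K9me3 and H3K27me3 ChIP-seq in 4 sorted populations. The 12 lists were used. The 4 IgG samples, which have no list, were the controls of the peak calls. The authors trimmed single-end reads (Trimmomatic 0.22 in the submitters' notes), aligned them to mm9 with Bowtie2, removed low-quality alignments, pooled experimental replicates and called peaks with MACS against IgG. The deposited score of a peak is minus 10 times the log10 of its p-value, and the lists hold no read numbers. Antibodies were from Millipore and Abcam for H3K9me3.

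Positions are 1-based in mm9. The genome and GENCODE vM1 genes (22367 protein-coding) are of the same assembly. Scripts in Python 3.11.15 (scipy 1.17.1, numpy 2.4.6) gave overlaps, positions and intervals. The search for overlaps and the word count were tested on simulated data, and overlaps gave the same count as bedtools 2.31.1. Shared sequence was found by 31-base words, with copies closer than 2 kb joined and at least 20 shared words required.

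Named regions are the 10 highest scores, 5 highest partner scores, 5 widest, 3 highest on each other mark of non-HFSCs, 2 per gene family, 3 just inside and 3 just outside the rule and the 3 densest windows, with ties kept. Some regions that this rule names are not reported here. The promoter regions, marker genes and groups were described after their values were seen. The members, gene families, markers and rules were chosen with earlier results of these data known. Without replicates no test was made. Alternatives changed the score threshold, the overlap, merging, chromosomes, the distance to HFSC peaks, list length, the HFSC lists used and, added after seeing the data, peak width.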

Additional observations from a re-analysis of the deposited data

How the results depend on the processing

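No paired analysis was possible because each population and mark has 1 pooled list and no replicate. The number of non-HFSC-only peaks, 2306, became 1376 and 254 with scores of at least 50 and 100 in all lists, 92 with at least 100 in the non-HFSC H3K9me3 lists, 1192 with an overlap of at least 50%, 146 with the 1414 top-scoring peaks of each H3K9me3 list, and 1283 at widths of 1000 to 2000 bp. It was 3284 without the EA-HFSC list and 2590 without the LC-HFSC list. The 50% overlap applied to the HFSC lists too, so that setting also took in peaks that met an HFSC peak by less. The share between genes, 66.4%, was 55.6% with scores of at least 100 in all lists, 54.3% with them in the non-HFSC H3K9me3 lists and 59.6% with equal list lengths. The share on H3K27me3 of non-HFSCs, 9.45%, was 12.0% with scores of at least 100 in the non-HFSC H3K9me3 lists, 15.8% with an overlap of at least 50%, 8.24% with no HFSC peak within 5 kb, 13.0% with equal list lengths and 14.7% without the EA-HFSC list. The share on H3K4me3 of non-HFSCs, 0.867%, was 2.17%, 1.37% and 0.468% with scores of at least 100 in the non-HFSC H3K9me3 lists, with equal list lengths and at widths of 1000 to 2000 bp. The cause of these shifts was not tested, and the smaller sets have wide intervals. The median score and width moved with most of them. Absence of an HFSC peak depends on the reads behind each list, which the peak lists do not hold.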

Other observations

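Of 116 annotated U7 snRNA copies, 7 met the non-HFSC-only peaks, which was noticed after the values were seen. The same held for 1 of 206 annotated U1 copies, 3 of 936 U6 copies, 0 of 51 U2 copies and 0 of 43 U4 copies. Of 116 annotated copies in mm9, 16, or 13.8%, were on a non-EA-HFSC H3K9me3 peak, 6 on a non-LC-HFSC peak, 3 on an EA-HFSC peak and 1 on an LC-HFSC peak. Of the U6 copies, 4 were on a non-EA-HFSC peak and 14 on an EA-HFSC peak. For U1 these numbers were 2 and 7, for U2 0 and 2, and for U4 0 and 0. U7 was picked for its count, so no conclusion is drawn from it.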
